A study of Capra hircus with 6 samples.

Results

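The widest regions of a comparison of open chromatin in dairy goat mammary epithelial cells are described here. They are the 751 regions of 800 bp or more among 30714 regions that the authors listed as differing between the dry period and lactation. They were chosen by width alone, with no limit on p-value, false discovery rate (FDR) or fold change. The libraries came from ATAC-seq of mammary epithelial cells from the mammary gland of *Capra hircus*, with 3 libraries from the dry period (replicates 1, 2 and 3), the rest between lactations, and 3 from the lactation period (replicates 1, 2 and 5). The labels give no breed, age, stage within a period, or link between library and goat, and no treatment that all groups share. The table holds 1 fold change, 1 p-value and 1 FDR per region and no value per library, so the level in each library, its depth and the labelled cell type could not be checked here. No spread between replicates can be given, and the sources used here do not say whether the authors' p-values rest on separate goats or on technical spread.

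Region names fall into 2 sets, called set 1 and set 2. All fold changes in both are above 1, so each set was read as holding the regions more open in 1 of the 2 periods. Which period each set stands for is stated by neither table nor labels, so directions are named by set only.

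In ATAC-seq the Tn5 transposase cuts DNA where nucleosomes do not cover it, so promoters and enhancers in use yield many reads. A promoter commonly gives a short open stretch at the start of a gene, groups of enhancers can give longer ones, and active tRNA genes, which RNA polymerase III reads, are open as well. In the mammary gland, alveolar epithelial cells build and secrete milk during lactation.

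The wide regions lay mostly in set 1, at 638 of 751 (85.0%, 95% Wilson interval 82.2% to 87.3%), and 113 were in set 2. Among the 29963 regions under 800 bp the set 1 share was 74.2% (73.7% to 74.7%). Put the other way, 2.79% of set 1 regions and 1.44% of set 2 regions were wide. They make up 2.45% of the listed regions and 7.43% of the listed bases. The set 1 share rose with width, from 82.1% in the class of 800 to 900 bp to 89.1% in that of 1000 to 1200 bp and 96.4% at 1300 bp or more, where 54 regions were in set 1 and 2 in set 2. At an FDR under 0.05 the order turned round: 88.9% of 700 wide regions and 91.8% of 7843 narrower ones were in set 1. This limit is not the same in the 2 sets. By the authors' deposited table, a p of 1.74e-05 came with an FDR of 0.0215 in set 1 (*GATA3*). A p of 1.75e-05 came with an FDR of 0.102 in set 2 (*MAP7*). How far this contributes to the turn was not tested. At an unadjusted p under 1e-05 in both width classes the shares were 86.5% of 644 and 82.2% of 4585. Width, set, fold change and p-value all come from 1 contrast, so these shares are a description and were not tested. Intervals cover counting error only, and neighbouring regions are not independent.

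**Figure D1:**
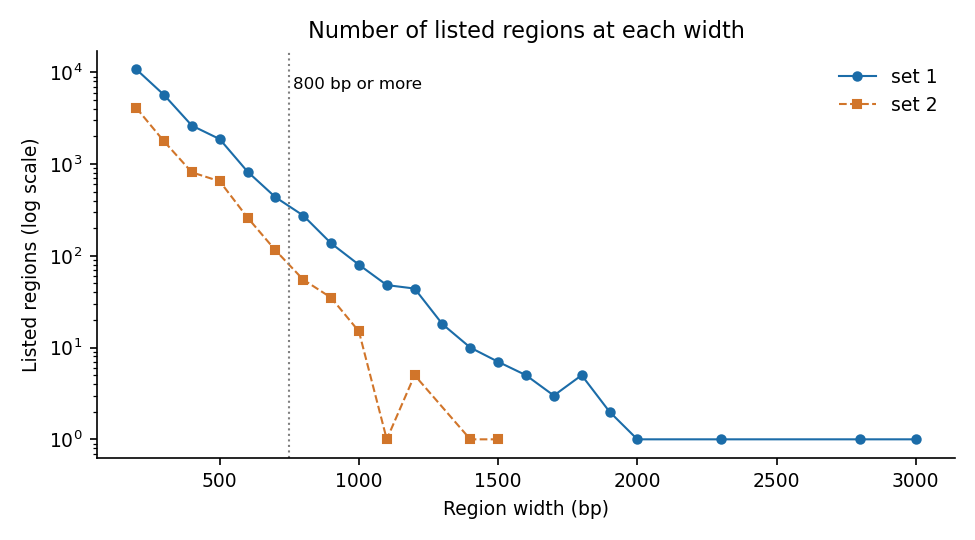
Number of listed regions (vertical axis, log scale) at each width in bp (horizontal axis) for set 1 (circles) and set 2 (squares); the dotted line separates regions of 800 bp or more. Set 2 ends at 1500 bp, and 11 regions of set 1 are wider than 1700 bp, the widest at 3000 bp.

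Most wide regions passed the authors' FDR. A total of 700 of 751 (93.2%) had, in the authors' deposited table, an FDR under 0.05, against 27.8% of all listed regions. By set the counts were 622 of 638 in set 1 (97.5%, against 34.2% of all set 1 regions) and 78 of 113 in set 2 (69.0%, against 9.23%). An FDR under 0.05 is a stricter limit on p in set 2 than in set 1, so the sets are not compared by it. A set 2 region that did not pass can have as small a p as a set 1 region that did. Since width and p-value come from the same reads, nothing is read from these shares. Of the 20 smallest p-values of set 1, 19 belonged to wide regions, and of those of set 2, 10 did. Just outside and just inside the width limit, the values were close. Regions of 700 bp had a median fold change of 2.29 in set 1 (436 regions) and 3.98 in set 2 (115), and regions of 800 bp had 2.22 (275) and 4.16 (55), by the authors' deposited table.

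Fold changes of wide regions were moderate in set 1 and larger in set 2. By the authors' deposited table the median fold change was 2.25 in set 1 (quartiles 1.87 and 2.93, range 1.40 to 15.8) and 4.17 in set 2 (3.01 and 5.63, range 1.81 to 27.1). Under 800 bp the medians were 2.40 in set 1 and 3.59 in set 2, so the wide regions had the lower median in set 1 and the higher one in set 2. At an FDR under 0.05 the medians of narrower regions were 2.33 and 3.50. Of the wide regions, 211 in set 1 (33.1%, against 31.8% of narrower ones) and 4 in set 2 (3.54%, against 11.1%) had a fold change under 2. A fold change of at least 4 was listed for 54 (8.46%, against 13.8%) and 59 (52.2%, against 40.8%).

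**Figure D2:**
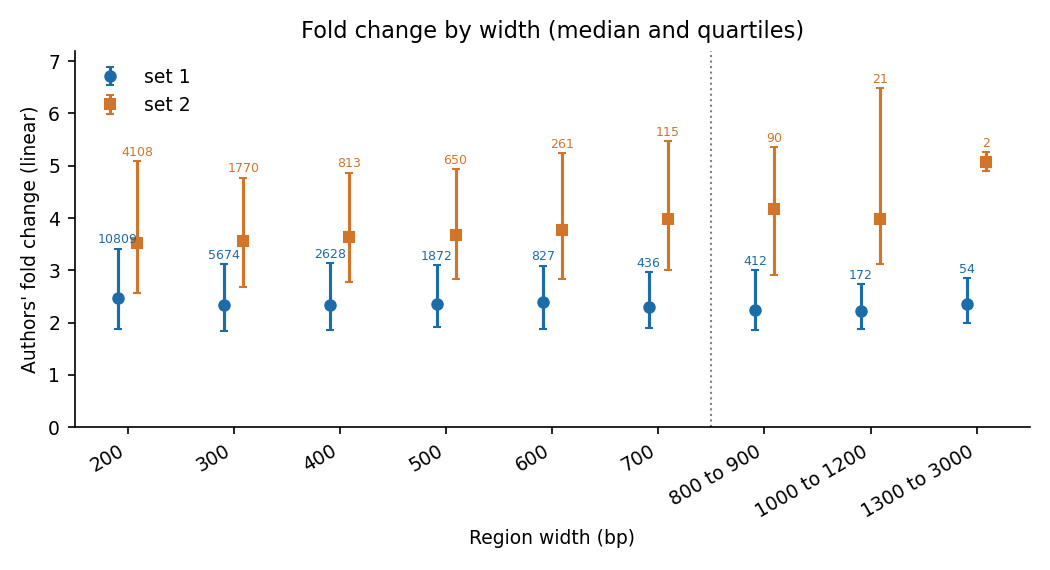
Authors' fold change (vertical axis, linear) by region width in bp (horizontal axis) for set 1 (circles) and set 2 (squares); points are medians, bars run from the lower to the upper quartile, and small numbers count regions. Set 2 medians lie above set 1 medians at every width, from 3.53 against 2.48 at 200 bp to 4.16 against 2.24 at 800 to 900 bp; the last set 2 point rests on 2 regions.

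The widest region of all lay among tRNA genes. It is a set 1 region of 3000 bp on chromosome 25 (2507601 to 2510600), listed at 3.04-fold with an FDR of 2.48e-07 in the authors' deposited table. Its centre is 332 bp from an end of a lysine tRNA gene (*TRNAK-CUU*) and 14918 bp from the nearest protein-coding gene end. It is 1 of 5 wide set 1 regions in a stretch of 31.6 kb that holds 21 tRNA genes and overlaps 0 protein-coding genes. Listed regions, 13 in all and each in set 1, cover 37.3% of that stretch. Next in width was a set 1 region of 2800 bp on chromosome 5 at 47154101 to 47156900, 6667 bp from an end of *HMGA2*, a chromatin-bending protein of growing cells, at 2.45-fold by the authors' deposited table (FDR = 4.69e-05). A second wide set 1 region, of 800 bp, lay 1155 bp from an end of *HMGA2* at a fold change of 1.81 (authors' deposited table).

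Other set 1 regions of at least 1800 bp lay in or near named genes. The 2300 bp region in *FAM69B*, centred 1502 bp from an end of the gene (chromosome 11, 103543301 to 103545600), was listed at 2.05-fold in the authors' deposited table (FDR = 0.000129). A region of 1800 bp on chromosome 23 at 31089901 to 31091700 lay within 3000 bp of an end of both *SLC35B2*, the Golgi carrier of the sulphate donor PAPS, and *NFKBIE*, an inhibitor of NF-kappa-B, at 2.17-fold by the authors' deposited table. On chromosome 10 a region of 1800 bp, 13300 bp from an end of *ANXA2*, an annexin that binds membranes, was listed at 2.68-fold in the authors' deposited table. It has a second wide neighbour of 1100 bp at 3.798 (authors' deposited table). A region of 1800 bp near *PBX4* had a fold change of 2.23, and one of 1900 bp at *LOC102182395* had 3.00, in the authors' deposited table. The 1900 bp region at *LOC106503502* on chromosome 23 had 1.88 in the authors' deposited table. One region of 1800 bp on chromosome 10 at 6592601 to 6594400 lay 600344 bp from the nearest protein-coding gene end, with a fold change of 5.38 (authors' deposited table, FDR = 1.499e-07).

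In set 2 the widest region covers 1500 bp inside *MAP7*, a microtubule-binding protein of epithelial cells (chromosome 9, 61496601 to 61498100). Its fold change was 4.72 in the authors' deposited table, with an FDR of 0.102, so it did not pass 0.05. Behind it came 1400 bp near an end of *KCNH1*, a potassium channel, and 1200 bp regions near an end of *KIF14*, a kinesin of cell division, near an end of *PIK3R3*, a regulatory subunit of phosphoinositide 3-kinase, and inside *ARHGAP25*, a regulator of Rac that is known from blood cells. By the authors' deposited table they stood at fold changes of 5.44, 6.89, 2.05 and 6.498. The *ARHGAP25* region lies on chromosome 11 at 66899901 to 66901100 (FDR = 0.00653 in the authors' deposited table). Wide set 2 regions of 1200 bp also lay 301753 bp from an end of *MEX3C* and 749407 bp from an end of *SOX9*, a transcription factor, with fold changes of 6.35 and 8.09 in the authors' deposited table. Neither passed an FDR of 0.05 (0.0619 and 0.144). The remaining 3 of the 10 widest set 2 regions were an 1100 bp region 18727 bp from an end of *PLEKHA5* (3.45-fold by the authors' deposited table) and the 1000 bp regions inside *TTC25* (3.71) and *PLXNA2* (6.48).

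The 3 largest fold changes of wide regions were all in set 2. The highest was 27.1 in the authors' deposited table, for a set 2 region of 800 bp inside *C28H10orf11*, 574050 bp from an end of that long gene (chromosome 28, 13901101 to 13901900, FDR = 0.00290). A set 2 region 18811 bp from an end of *CXADR*, a junction protein and virus receptor, had 20.01 in the authors' deposited table (chromosome 1, 18133701 to 18134500, FDR = 0.00256). Set 2 regions 32527 bp from an end of *GJA1*, the gap junction protein connexin 43 (26.8), and inside *LATS2*, a kinase of the Hippo pathway (13.3), did not pass an FDR of 0.05 in the authors' deposited table (0.0900 and 0.102). A set 2 region on an unplaced sequence had 15.5 in the authors' deposited table (FDR = 0.00829). In set 1 the highest were 15.8 for a region 35660 bp from an end of *ARSJ*, a sulfatase gene, and 15.2 for a region 525 bp from an end of *QRSL1*, in the authors' deposited table. A set 1 region 181285 bp from an end of *IKZF2*, a lymphoid transcription factor, followed at 10.5 in the authors' deposited table, and a region 13309 bp from an end of *FAM129A* had 9.16. *FST*, which encodes follistatin, a secreted inhibitor of activin, had 2 wide set 1 regions. Their fold changes were 9.34 and 1.75 in the authors' deposited table, for regions 1323 and 7 bp from an end of the gene.

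The wide regions at protein-coding genes with the smallest p-values were as follows. In set 1, besides *QRSL1*, *TEX14* and *ADAMTS4*, they included *CSF1*, the growth factor of macrophages, with a region of 1000 bp inside the gene (chromosome 3, 87070701 to 87071700) at 3.56-fold by the authors' deposited table (FDR = 2.55e-17). *CNIH3*, an auxiliary subunit of AMPA receptors, had 4.61 in the authors' deposited table, and *GCNT4*, an enzyme that branches mucin-type glycans, had 4.52. The inositol phosphate kinase *ITPK1* had 2.47, *C2CD2* had 2.40 and *LOC102189488* had 3.02 in the authors' deposited table. In set 2 they included, besides *TTC25*, *PLXNA2*, *PEF1*, *KIF14* and *KCNH1*, a region inside *PTK2B*, a tyrosine kinase that responds to calcium, at 4.66-fold by the authors' deposited table (chromosome 8, 74236901 to 74237700, FDR = 4.29e-07). *SPTLC3*, a subunit of the enzyme that starts sphingolipid synthesis, held 2 wide set 2 regions at 3.53 and 3.24 in the authors' deposited table. *KLHL42* had 4.75 and *NTN1*, which encodes the guidance protein netrin 1, had 6.04 in the authors' deposited table. Inside *VWF*, the gene for von Willebrand factor of endothelial cells, a wide set 2 region had 9.63 in the authors' deposited table (FDR = 2.95e-05).

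Positions were set against protein-coding genes, first for set 1. Set 1 had 630 wide regions on chromosomes 1 to 29, and the centre of 203 (32.2%, 28.7% to 36.0%) lay no more than 3000 bp from a gene end, against 36.0% (35.4% to 36.6%) of narrower set 1 regions. The share was the lower for wide regions on 21 of 29 chromosomes, but not when every kind of gene in the gene table was used (0.352 percentage points higher in wide regions) or at a width limit of 1200 bp (0.569 points higher). The interval of the difference, -7.37 to 0.0244 points, includes 0. Another 184 (29.2%) lay inside a gene away from its ends, 179 (28.4%, 25.03% to 32.1%) outside genes but within 50000 bp of one, and 64 (10.2%) farther away. The corresponding shares of narrower set 1 regions were 31.0%, 23.7% (23.2% to 24.3%) and 9.31%. For regions outside genes within 50000 bp the intervals were thus apart. They overlapped without chromosome 23, at 27.4% (23.9% to 31.2%) of wide and 23.4% (22.9% to 24.0%) of narrower regions. They also overlapped at an FDR under 0.05, at 28.3% (24.9% to 32.0%) and 25.1% (24.1% to 26.1%). Among 111 wide set 2 regions, 12 (10.8%, 6.29% to 17.95%) lay near a gene end and 54 (48.6%, 39.6% to 57.8%) inside a gene. A further 25 (22.5%) lay within 50000 bp of a gene and 20 (18.02%) farther away. Narrower set 2 regions had 12.6%, 46.8%, 21.3% and 19.4%. Tests over regions were not run because regions are not replicates. The intervals of the wide and the narrower set 2 regions overlap in all 4 classes, which does not show that they are alike.

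**Figure D3:**
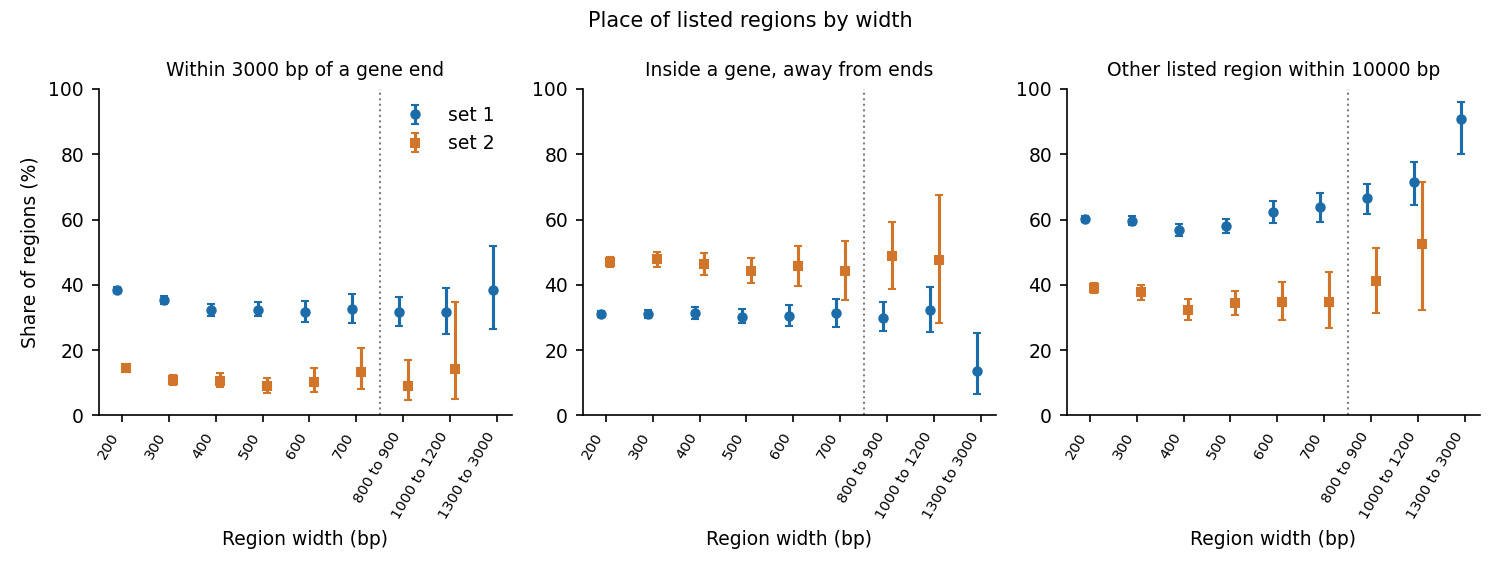
Share of listed regions (vertical axes, %) by width in bp (horizontal axes) for set 1 (circles) and set 2 (squares): within 3000 bp of a protein-coding gene end, inside a gene away from its ends, and with another listed region within 10000 bp; bars are 95% Wilson intervals and classes with under 10 regions are left out. Set 1 lies above set 2 at gene ends and below it inside genes at each width shown for both, and the set 1 neighbour share reaches 90.7% at 1300 bp or more.

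Set 1 regions near gene ends had the smallest fold changes of the wide set 1 regions. Their median was 2.04 in the authors' deposited table (203 regions), against 2.30 inside genes, 2.31 outside genes within 50000 bp and 2.82 beyond (64 regions). Narrower set 1 regions followed the same order at the ends of the range, with 2.18 near gene ends and 2.74 beyond 50000 bp, by the authors' deposited table. In set 2 the median of the 54 wide regions inside genes was 4.66 and that of the 12 near gene ends 3.98 in the authors' deposited table. The genes that held set 2 regions were long: the median length was 172540 bp for wide set 2 regions inside genes, and 38 of 54 such regions lay in genes over 100000 bp. For wide set 1 regions inside genes the median was 80315 bp, and 80 of 184 lay in genes over 100000 bp. Narrower regions had medians of 148854 bp in set 2 and 91180.5 bp in set 1. Of the wide set 1 regions, 57 (9.05%) lay within 3000 bp of an end of at least 2 genes, against 8.42% of narrower ones, and of the wide set 2 regions 1 did, at *SPI1* and *MYBPC3*.

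Wide set 2 regions near gene ends lay at genes of varied roles. Besides *PEF1*, *KIF14*, *KCNH1*, *PIK3R3* and *SPI1*, the myeloid transcription factor PU.1, they were at *C10H15orf41* (3.29-fold by the authors' deposited table), *MAGI2*, a junction scaffold (2.52), and *FHIT* (4.05). Others were at *C21H15orf40* (1.84), *SLC8A1*, the sodium-calcium exchanger (2.07), and *LOC102184112* (6.05) in the authors' deposited table. These last 3 had an FDR of 0.0588 to 0.173 by the authors' deposited table and did not pass 0.05. Of the 12 wide set 2 regions near gene ends 8 passed, and not all 12 are named here.

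The widest regions lay beside other listed regions. The gap to the next listed region had a median of 3000 bp for wide set 1 regions and 5800 bp for narrower ones. In set 1, 446 of 638 (69.9%, 66.2% to 73.3%) had another listed region within 10000 bp, against 59.7% (59.0% to 60.3%) of narrower set 1 regions, and the share was higher for wide regions on 22 of 29 chromosomes. Gaps are counted between edges, and how far width itself contributes to them was not tested. The share rose to 71.5% at 1000 to 1200 bp and 90.7% (49 of 54, 80.1% to 96.0%) at 1300 bp or more. Of the 446, 426 (95.5%) had their nearest listed neighbour in set 1 too, against 92.6% for narrower set 1 regions with such a neighbour. Wide set 2 regions stood more alone, with 48 of 113 (42.5%, 33.8% to 51.7%) having such a neighbour, against 37.5% of narrower set 2 regions. For 11 of the 48 that nearest neighbour was in set 1, against 1025 of 2891 for narrower set 2 regions. In all, 110 wide regions (14.6%) lay within 200 bp of the next listed region, against 10.9% of narrower ones. The shares were 16.1% against 12.3% in set 1, and 6.19% against 6.91% in set 2. Joining listed regions of 1 set over gaps of up to 200 bp gave 1277 stretches of 800 bp or more, of which 86.8% were in set 1.

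Grouping wide regions with no more than 50 kb between them left 547 alone and put 194 (26.2%) into 75 groups. Of these groups 19 held 3 or more wide regions, and all 19 were made up of set 1 regions. Set 2 put 10 of its wide regions into groups, 4 of which held set 2 alone: inside *SPTLC3* and *SLCO3A1*, and outside genes with *AGAP1* and *AKR1B1* the nearest. In the authors' deposited table the *SLCO3A1* pair, inside the gene of an organic anion transporter, had fold changes of 5.99 and 5.27. Wide regions of both sets lay in 1 group at *RASSF5* and in 1 at *TTC25* and *CNP*. Inside *RASSF5*, which encodes a Ras-binding protein, the set 2 region had 3.10, and the set 1 region, 1131 bp from an end of the gene, 1.63 in the authors' deposited table. *SMG6*, a nuclease of nonsense-mediated decay, also held both, at 2.34 in set 1 and 5.82 in set 2 by the authors' deposited table.

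Both largest groups lay on chromosome 23, with 11 wide regions over 133.5 kb (18861901 to 18995400) and 10 over 154.1 kb (18152801 to 18306900). Each wide region in them was in set 1, with fold changes of 1.53 to 3.93 and 1.83 to 4.21 in the authors' deposited table. The stretches hold 22 and 16 tRNA genes and overlap 15 and 20 protein-coding genes. Among the latter *LOC102178901* had 4 wide regions, and *LOC102178621* and *LOC102183743* had 3 each. A further 4 wide set 1 regions lay from *PRSS16* to *ZNF184*, and 3 near *TRIM27* and *ZNF311*, on the same chromosome. Of its 1111 listed regions, 55 (4.95%) were wide, the highest share of the 29 chromosomes, and 1 of the 55 was in set 2.

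At *KLF6*, a zinc finger transcription factor, 4 wide set 1 regions lay within 19.5 kb, with fold changes of 2.69 to 3.30 in the authors' deposited table. Listed regions, 9 in set 1 and 3 in set 2, covered 34.9% of those 19.5 kb. A group of 4 near *ACTB*, the gene for cytoplasmic beta-actin, had 1.73 to 1.99 in the authors' deposited table, the nearest of them 3175 bp from an end of the gene. Groups of 4 also lay inside *TEX14* (1.496 to 4.68) and from *AGPAT2*, an enzyme of triglyceride synthesis, to *FAM69B* (2.05 to 2.44), by the authors' deposited table.

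Of the groups with 3 wide regions, those at *RUFY1*, an endosomal protein, stood closest, within 4.7 kb, of which listed regions covered 80.9%. Their fold changes were 2.204 to 3.49 in the authors' deposited table. At *IGFBP1*, a secreted binding protein of insulin-like growth factors, 3 regions within 9.8 kb had 2.05 to 3.10 in the authors' deposited table. The group nearest *ZFP36L1*, which promotes decay of mRNAs with AU-rich elements, had 2.62 to 3.36 in the authors' deposited table, and its region of 3.36 did not pass an FDR of 0.05 (0.0819). A group nearest *KLF14* lay over 50000 bp from that gene and had 2.07 to 4.32, with 19 listed regions in 32.3 kb, by the authors' deposited table. The others were nearest to *YWHAQ*, to *SIRT4* and *PXN*, to *LRRC75A* and *UBB*, to *S100A5*, *S100A3* and *S100A2*, and inside *UNC13A*.

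**Figure D4:**
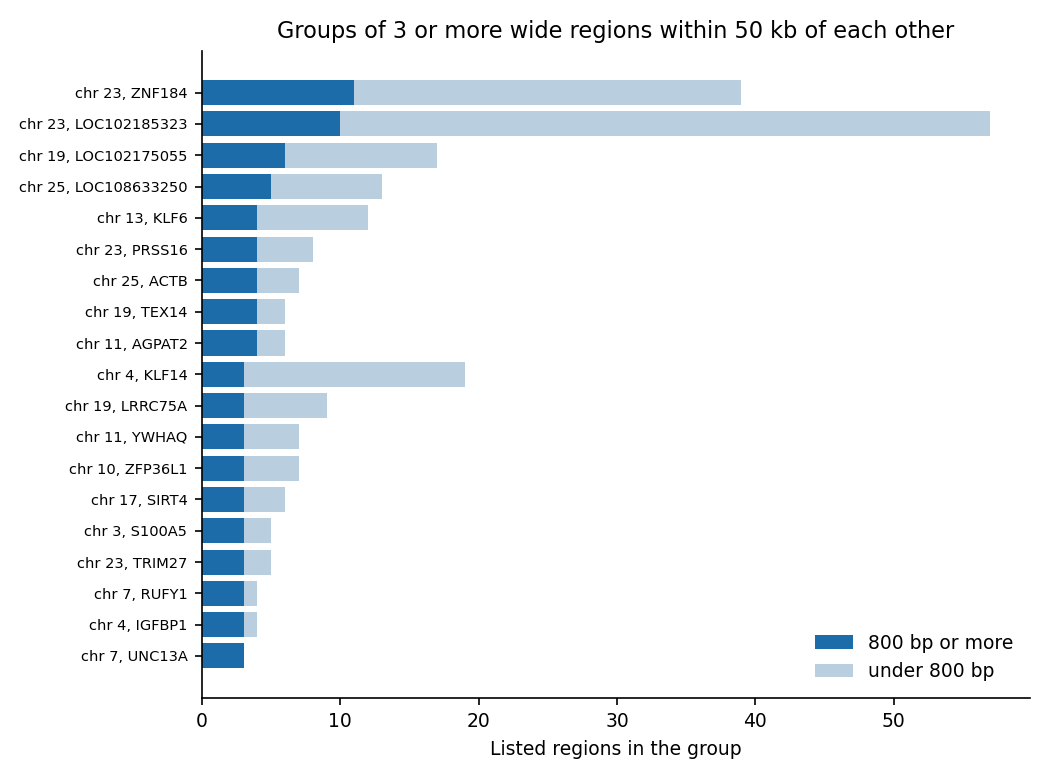
Number of listed regions (horizontal axis) in each of the 19 groups of 3 or more wide regions that lie within 50 kb of each other; dark bars count regions of 800 bp or more, light bars narrower regions of either set, and labels give the chromosome and the nearest gene of the first wide region. The 2 longest bars, both on chromosome 23, hold 57 and 39 listed regions.

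In set 1, wide regions lay at tRNA genes more often than narrower ones, as a description of the listed regions with no test. Of 630 wide set 1 regions, 37 (5.87%, 4.29% to 7.99%) had their centre within 3000 bp of a tRNA gene, against 1.58% (1.42% to 1.76%) of narrower set 1 regions. Without chromosome 23 the shares were 3.65% (2.40% to 5.51%) and 1.08% (0.953% to 1.23%). At 1300 bp or more it was 10 of 52 (19.2%, 10.8% to 31.9%). In set 2 it was 0 of 111, which allows a share of up to 2.70% if 3 counts of 111 are taken as the limit. The upper limit of the Wilson interval was 3.35%, and 0.371% of narrower set 2 regions lay so close. The 37 lay on 11 chromosomes, 16 of them on chromosome 23 and 6 on chromosome 25, and 33 were not within 3000 bp of a protein-coding gene end. Their fold changes ran from 1.74 to 4.44 with a median of 2.73 in the authors' deposited table. The smallest p-value among them belonged to a region over 50000 bp from any protein-coding gene but 4 bp from an asparagine tRNA gene (*TRNAN-GUU*), on chromosome 3 at 101599601 to 101600400, at 2.86-fold by the authors' deposited table (FDR = 3.87e-13). By the nearest tRNA gene, lysine (*TRNAK-CUU*) and methionine (*TRNAM-CAU*) were the most frequent, with 4 regions each. For long noncoding RNA genes the shares were 3.02% of wide and 2.85% of narrower set 1 regions.

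Across the 29 chromosomes, wide regions were densest on chromosomes 23 and 19, with 1.18 and 0.976 per Mb, followed by chromosome 25 with 0.630. Chromosomes 6, 20 and 1 had 0.119, 0.126 and 0.134 per Mb. Chromosome length was taken as the end of the last listed region. The density followed the number of protein-coding genes per Mb (Spearman's rho of 0.85 over 29 chromosomes, 0.82 without chromosomes 19 and 23), as did that of narrower regions (0.92). These values share the gene table and the libraries and are given with no test. Chromosomes 19, 23 and 3 together held 168 of the 741 wide regions placed on chromosomes, and 10 more lay on 7 other sequences, 8 in set 1 and 2 in set 2.

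**Figure D5:**
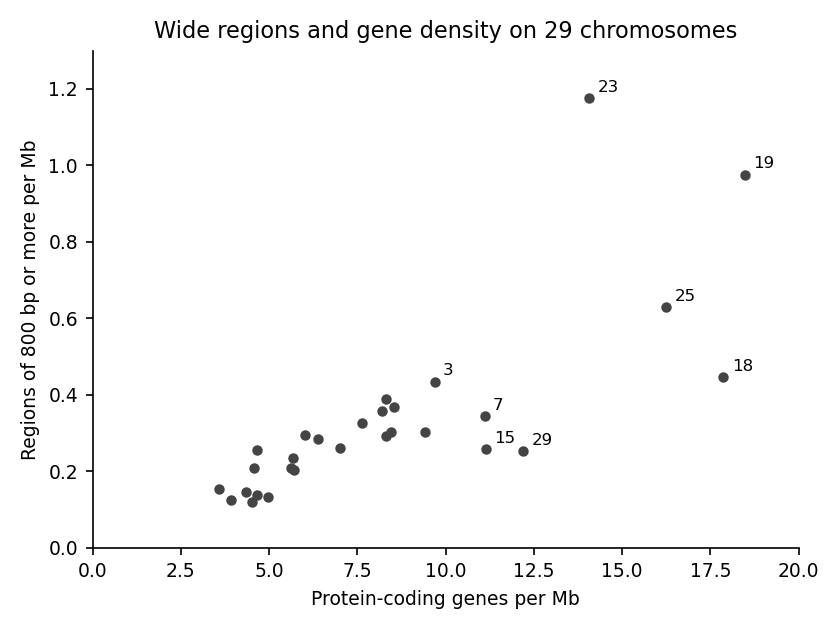
Regions of 800 bp or more per Mb (vertical axis) against protein-coding genes per Mb (horizontal axis) on 29 chromosomes, 1 point each; numbers name chromosomes with over 0.4 wide regions or over 10 genes per Mb. Chromosomes 23 (1.18) and 19 (0.976) lie highest.

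Of 19059 protein-coding genes, 479 (2.51%) had a wide region inside or no more than 3000 bp from an end, 416 with at least 1 in set 1 and 65 with at least 1 in set 2. For narrower regions the count was 9508 genes (49.9%). A total of 43 genes had 2 or more wide regions, 39 of them in set 1 alone and 2 in set 2 alone. Some of these genes share the same regions, such as *MISP3* and *IL27RA*, so the separate places are fewer than the genes. In the gene lists, 18 of 327 genes (5.505%) had a wide region, and 69.7% had a narrower one. The difference between 5.505% and 2.51% was not tested.

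Counts for genes of milk synthesis can be read against the 2.51% of all protein-coding genes. None of 17 milk protein genes had one, while 7 had a narrower region. Of 33 milk fat genes 1 did: *ACACA*, acetyl-CoA carboxylase, with a set 1 region of 800 bp inside the gene, listed at 2.39-fold in the authors' deposited table. Among 14 genes of lactose synthesis and sugar supply it was *PFKFB3*, a regulator of glycolysis, with a set 2 region of 1000 bp inside the gene at 5.67 (authors' deposited table, FDR = 0.000278). In hormone signalling 2 of 27 had a wide set 1 region, both inside the gene: *VDR*, the vitamin D receptor (2.07), and *JAK2*, the kinase of the prolactin receptor (2.08), by the authors' deposited table.

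Involution, cell death and cell cycle genes with a wide region had it in set 1, as had 416 of the 479 genes with one. Those 479 are 2.51% of all protein-coding genes. There were 3 of 31 in the involution and cell death list: *PLAT*, tissue plasminogen activator (2.58-fold by the authors' deposited table), *CASP8*, a caspase that starts apoptosis (1.85), and *BAX*, which permeabilises mitochondria (1.83). The *BAX* region also lay within 3000 bp of an end of *FTL* and *TULP2*. Of 18 cell cycle genes it was *E2F1*, a transcription factor of the step into DNA synthesis, with 2 neighbouring regions of 1400 and 800 bp at 2.61 and 3.22 in the authors' deposited table (FDR = 0.000790 and 0.00571). *CYR61*, a matricellular protein outside the lists that was named after its values were seen, likewise had 2, at 2.75 and 4.66 in the authors' deposited table.

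The few luminal and basal markers with a wide region had it in set 1, as had 416 of the 479 protein-coding genes with one. Markers of other cell types appeared in both sets. Of all protein-coding genes 2.51% had a wide region and 49.9% a narrower one. Of 20 luminal genes, *KRT19*, a keratin of luminal cells (2.23), and *GATA3*, their transcription factor (2.45), had a wide set 1 region by the authors' deposited table. Among 15 basal genes *ITGA6*, an integrin that binds laminin, had one at 1.47-fold by the authors' deposited table (FDR = 0.000119). Of 13 endothelial genes, *PECAM1*, an adhesion molecule, had a wide region in set 1 (1.65) and *VWF* in set 2, and of 12 immune genes *SPI1* had one in set 2 (4.47), by the authors' deposited table. No fibroblast gene of 11 and no adipocyte gene of 7 had one, while 7 and 4 had a narrower region. How far the share of each cell type in the libraries contributes was not tested, and in bulk libraries more cells of a type and more open chromatin per cell cannot be told apart.

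Among regulators, 1 of 30 chromatin regulators had a wide region, *ARID1A*, a subunit of a nucleosome remodeller, in set 1 at 2.74 in the authors' deposited table. Of 14 AP-1 factors it was *ATF4*, a factor of the stress response, with a set 1 region of 1500 bp at 1.56 in the authors' deposited table. That region lies inside *RPS19BP1*, whose end, at 199 bp, is nearer to it than that of *ATF4*. Of 17 NFI, RUNX, TEAD and SOX factors 0 had one, and 15 had a narrower region. Of all protein-coding genes 2.51% had a wide region and 49.9% a narrower one. These lists are too small for a count of 0 to be read against 2.51%. Of 30 cytosolic ribosomal protein genes 0 had one, and 20 had a narrower region. In the list of neural genes 2 of 22 had one, *KCNH1* in set 2 and *CDH13*, an atypical cadherin, in set 1 at 5.11 in the authors' deposited table.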

How the data were processed

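ATAC-seq was made from 3 dry period and 3 lactation libraries. Bowtie2 2.2.5 and MACS2 are listed, per the submitters' processing notes, without a stated role. Not given in the sources used here are the program behind the differential table, its windows, any Tn5 shift, duplicate removal and the genome build. The authors deposited 1 table of 30714 regions. Per the file headers it holds a width in bp (another unit than the rest), a signal value (a score, not used), a fold change (a linear ratio), a p-value (each under 0.001) and a Benjamini-Hochberg FDR. It holds no value per library, so depth is unknown and no test across libraries, block or left-out library was possible.

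Members and gene lists were chosen with earlier results of these data known. Gene names came from the RefSeq gene table of assembly ARS1.2, which gives no strand; none of its coordinates are printed. As a check of the chromosome numbering, regions were matched to gene ends within 1000 bp: for 29 of 29 chromosomes the chromosome's own genes matched best. Width is the deposited end minus the deposited start. Printed starts are the deposited ones plus 1, so that positions count from 1. Distances run from a region's centre to the nearest end of 19059 protein-coding genes. The 17 gene lists hold 345 entries, and 327 different genes matched. Genome sequence was not used here, so no sequence is printed. Shares carry 95% Wilson intervals. The rule for named genes took, per set, the 10 widest regions, the 10 smallest p-values in or at a gene and the 5 largest fold changes, then up to 4 genes per list at an FDR under 0.05 and genes with 3 or more wide regions. Genes named for groups of wide regions, for pairs of regions or for both sets, and the set 2 genes at gene ends, were chosen after their values were seen. Python 3.11.15, pandas 2.3.3 and scipy 1.17.1 were used, and placement was tested on simulated data. Results for some of the regions chosen in these ways are not reported here.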

Additional observations from a re-analysis of the deposited data

How the results depend on the processing

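No paired analysis was possible because the deposited table holds no value per library, and no library could be left out for the same reason. Of 157 alternative values over 24 results, 105 stayed within the 95% interval of the reported share, difference or median, or within 1.5 times the reported count, 51 moved by more, and 1 reversed a difference whose interval excluded 0. In all, 13 differences between wide and narrower regions changed sign, 12 of them where the interval of the reported difference includes 0. Those of the 157 without chromosome 23 or with 1 region per group, also chosen after seeing the data, are among the 105. The share of wide regions in set 1 minus that of narrower ones was 10.7 percentage points, and it was -2.92 at an FDR under 0.05, where the wide share was 88.9%. It was 4.27 at a p under 1e-05. Joining regions over gaps of up to 200 bp, chosen after seeing the data, gave 1277 regions and 13.5 points.

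A width limit of 700 bp gave 1302 regions, 94.6% of set 1 at an FDR under 0.05, and 31 list genes. At 1000 bp there were 249 regions, 90.8% in set 1 (16.4 points above narrower ones), and 10 list genes. The set 1 neighbour share was then 76.1% (16.3 points above), and in set 2 78.3% passed the FDR with a median fold change of 4.72. At 1200 bp there were 105 regions, 93.3% in set 1 (18.9 points above), and 4 list genes. Set 1 then had 36.5% near gene ends (0.569 points above narrower regions), 20.8% inside genes (-10.1) and 87.8% with a neighbour (27.9). Set 2 then rested on 7 regions: 57.1% passed the FDR, the median fold change was 6.35, 42.9% lay near gene ends (30.3 points), 28.6% inside genes (-18.2), 28.6% far from genes (9.24) and 28.6% had a neighbour (-8.97).

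At an FDR under 0.01, 83.5% of wide set 1 and 51.3% of wide set 2 regions passed. Within 1000 bp of a gene end lay 16.3% in set 1 and 2.70% in set 2, and within 10000 bp 55.7% and 24.3%. When every kind of gene in the gene table was used, 39.5% of wide set 1 regions lay near a gene end, 0.352 points above narrower ones in place of below, and 6.67% lay far from any. Over 100000 bp away lay 5.87% in set 1 and 9.91% in set 2. A neighbour within 2000 bp was found for 42.8% and 19.5%, and within 50000 bp for 93.6% (5.04 points above narrower ones) and 81.4%. The other changes of sign were in set 1 inside genes without chromosome 23 (0.235 points) and far from genes at 1000 bp (-0.370), and in set 2 near gene ends at 1000 bp (4.81), inside genes at 700 bp (-0.373), and far from genes at 700 bp (0.775) and with every kind of gene (0.0366). Depth is unknown, the regions come from 1 contrast, and an FDR under 0.05 is a stricter limit on p in set 2 than in set 1. The cause of these shifts was not tested.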
